A study of Homo sapiens with 9 samples.

Results

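The 7 genes described here are the long noncoding RNAs MALAT1, NEAT1, NORAD, KCNQ1OT1, OIP5-AS1, GAS5 and EPB41L4A-AS1. They were grouped as nuclear RNAs, which does not hold for all of them. They were taken by gene symbol from a table of 36650 genes, of which 10961 carry the biotype lncRNA, and all 7 were found. MALAT1 was chosen by its TPM in the dMTS group, since it was lower in 2 of those libraries, so its levels there are a description and were not tested. RNA came from whole cell pellets, so the place of each RNA in the cell was not measured. NORAD acts mainly in the cytoplasm, and GAS5 is found in both compartments.

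The 9 libraries, 3 per group, were made from the castration-resistant prostate cancer line 16D. OGDHL, which encodes a protein related to the first enzyme of the mitochondrial oxoglutarate dehydrogenase complex, had been knocked out with CRISPR in every group, and every group had adapted for 6 weeks to the androgen receptor inhibitor enzalutamide and was kept in 10 µM of it. The knockout cells then received, by lentivirus, eGFP (the eGFP group), a full-length OGDHL that the guide does not cut (FL), or a guide-resistant OGDHL without its mitochondrial targeting sequence (dMTS). No library of cells with intact OGDHL is among them, and no label gives a clone, the promoter of the transgenes or separate cultures for the replicates. The comparisons ask what each form of OGDHL changes in knockout cells.

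MALAT1 is one of the most abundant nuclear RNAs and gathers in nuclear speckles, which store splicing factors. NEAT1 is the RNA scaffold of paraspeckles, and its long form is needed for them to assemble. Neither the long form of NEAT1 nor MALAT1 ends in an ordinary poly(A) tail: an enzyme that cuts tRNA precursors cleaves them, and a triple helix built on encoded A-rich and U-rich stretches protects the end. The short form of NEAT1 is polyadenylated, and a table of gene totals does not separate the forms. NORAD binds RNA-binding proteins, PUM2 among them, through many copies of their target element. KCNQ1OT1 is read from the paternal chromosome inside an intron of KCNQ1, on the opposite strand, and silences neighbouring imprinted genes. GAS5 is spliced and carries small nucleolar RNAs (snoRNAs) in its introns, and its mature RNA is broken down by nonsense-mediated decay. OIP5-AS1, also called cyrano, and EPB41L4A-AS1 are less well understood, and the latter also hosts a snoRNA.

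The ends of MALAT1 and NEAT1 are shown because the libraries were made from enriched mRNA, a step that acts on poly(A) tails, and these ends carry encoded A-rich stretches in place of a tail. Both are written 5′ to 3′ from GENCODE release 29 on GRCh38. The MALAT1 stretch, chr11:65506017-65506116 on the plus strand, is the 100 bases before mascRNA, the tRNA-like piece that is cut off and that RefSeq places from 65506117 to 65506174. The NEAT1 stretch, chr11:65445441-65445540 on the plus strand, is the last 100 bases of the long transcript. Capitals mark 3 runs that both share.
MALAT1 3-prime end: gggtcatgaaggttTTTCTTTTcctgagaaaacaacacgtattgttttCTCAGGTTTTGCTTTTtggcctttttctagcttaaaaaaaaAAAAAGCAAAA
NEAT1 3-prime end: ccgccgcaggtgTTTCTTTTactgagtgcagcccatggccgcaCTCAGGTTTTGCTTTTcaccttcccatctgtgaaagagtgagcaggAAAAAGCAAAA
The first run, TTTCTTTT, was in the last 100 bases of 1.25% of 203677 GENCODE transcripts of at least that length, searched on the transcript strand only. The second, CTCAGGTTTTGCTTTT, is the longest run that the MALAT1 and NEAT1 stretches share, with 16 bases. It was in the last 100 bases of 1 transcript, that of NEAT1, since the annotated MALAT1 transcript goes on past mascRNA. The third run, AAAAAGCAAAA, was in 94 transcripts, or 0.0462%.

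NORAD is shown by the elements it is known for. The element searched was TGTANATA, on the transcript strand, with overlaps counted, and NORAD held 15 matches in 5339 bases. Among 8098 transcripts of at least that length, the first 5339 bases held a median of 0 matches, and 3 transcripts (0.0370%), NORAD included, held 15 or more. In 3 places a pair of matches starts 9 bases apart, with 1 base between them. The 3 pairs, with the elements in capitals, lie on the minus strand of chromosome 20 at chr20:36049488-36049534, chr20:36048291-36048337 and chr20:36047655-36047701.
NORAD pair 1: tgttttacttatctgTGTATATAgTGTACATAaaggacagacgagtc
NORAD pair 2: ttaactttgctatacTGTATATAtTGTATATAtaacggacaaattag
NORAD pair 3: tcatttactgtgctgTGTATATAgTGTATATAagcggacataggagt
A match is a run of letters. Binding was not measured in these cells.

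The rescued gene set the FL and dMTS libraries apart from eGFP, as labelled, but not from each other. OGDHL was at 1.12 to 1.26 TPM (transcripts per 1000000) with eGFP, 165 to 270 TPM in the FL libraries and 76.1 to 175 TPM in the dMTS libraries. The FL and dMTS ranges overlapped, and a gene total does not separate the forms, so which form a library carries was not checked. The estimated depth was 86.3 M to 121 M reads (M stands for 1000000). Luminal prostate markers, led by KLK3 and HOXB13, summed to 1490 to 1826 TPM per library, while markers of other cells stayed low: 2 neuroendocrine markers summed to 0.518 to 0.739 TPM, 3 fibroblast markers to 2.22 to 3.13, 2 immune markers to 0.263 to 0.602 and 3 endothelial markers to 0.0183 to 0.0374. The fibroblast sum was 3.05 to 3.13 with eGFP, 2.89 to 2.94 with FL and 2.22 to 2.62 with dMTS. No marker of these lists was at 0 in all 9 libraries, CD3E was not analysed here, and the part of any of them in the results was not tested. Library dMTS 2 stood apart in composition: mitochondrially encoded genes took 54.9% of its TPM, against 62.1% to 66.0% in the other 8. TPM are per genomic span, so this is not a share of reads. Of the estimated reads these genes took 14.8% in dMTS 2 and 19.1% to 22.5% in the other 8. In dMTS 2 the median gene was 0.28 higher on the log2 scale than its mean over the libraries. For this reason each result is also given rescaled, that is, with every library scaled so that its median log2 ratio is 0. The ratios this removed ran from -0.13 in eGFP 3 to 0.28 in dMTS 2.

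TPM were divided by the whole genomic span of a gene, introns included. MALAT1, NORAD and KCNQ1OT1 are unspliced in their main forms, so their values come close to a level per transcript. NEAT1 is unspliced too, but its short form covers only part of the span. Its level per transcript is therefore understated, by an amount not known here. OIP5-AS1, GAS5 and EPB41L4A-AS1 are spliced and are understated as well. Per base of span, the mean over the 9 libraries was 1150 TPM for MALAT1, 177 for NORAD, 99.7 for NEAT1, 35.4 for GAS5, 13.6 for OIP5-AS1, 11.3 for EPB41L4A-AS1 and 0.469 for KCNQ1OT1. Neighbours in this order did not overlap over the 9 libraries, except OIP5-AS1, at 10.9 to 18.3 TPM, and EPB41L4A-AS1, at 10.1 to 11.7 TPM. OIP5-AS1 was the higher of that pair in 8 of 9 libraries. Per base of span MALAT1 ranked 68 among all 36650 genes and 5 among genes of the lncRNA biotype. Other spliced genes are understated too, so this is not a rank by level per transcript. KCNQ1OT1 spans 102696 bases, so its low TPM still rests on an estimated 1223 to 1839 reads, about as many as the 1380 to 1714 of EPB41L4A-AS1, and the estimate for MALAT1 is 272393 to 482584.

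**Figure D1:**
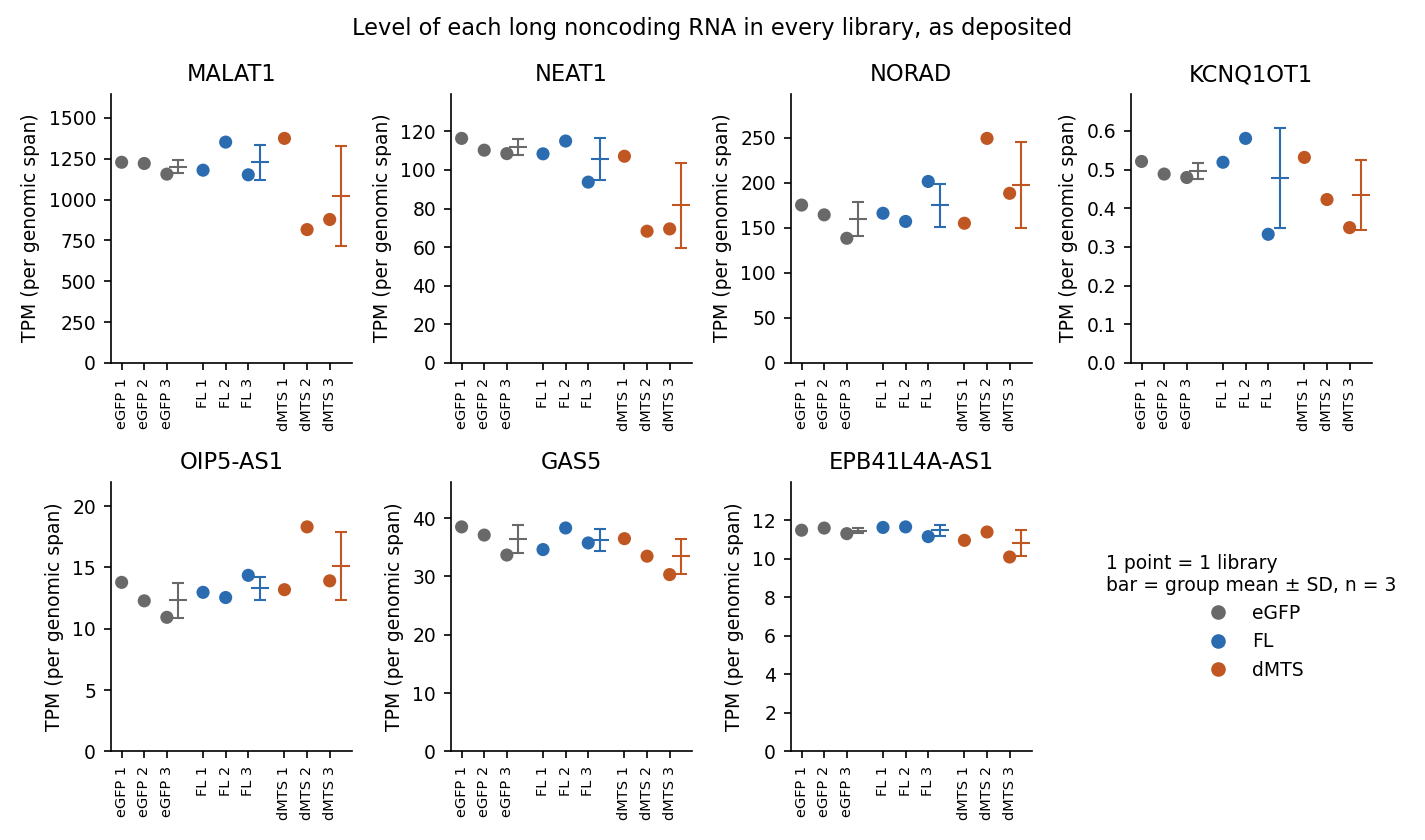
TPM per genomic span (y axes, from 0, a different range in each panel) of the 7 RNAs in each of the 9 libraries, with 1 point per library and bars for the group mean ± SD of 3 libraries. MALAT1 and NEAT1 are lowest in dMTS 2 and dMTS 3, and NORAD is highest in dMTS 2.

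MALAT1 (ENSG00000251562, chr11:65497640-65508073, plus strand) was at 1228, 1221 and 1155 TPM in the eGFP libraries 1 to 3, at 1180, 1352 and 1151 TPM with FL and at 1374, 816 and 878 TPM with dMTS. The dMTS group held both the highest library, dMTS 1, and the lowest pair, dMTS 2 and 3, so the 3 groups overlapped. In bulk RNA, fewer cells that make an RNA and less of it per cell cannot be told apart. The means were 1201 ± 39.9, 1227 ± 108 and 1023 ± 306 TPM (SD, n = 3 each) for eGFP, FL and dMTS. Against the eGFP mean, dMTS 2 stood at 0.679 and dMTS 3 at 0.731 of the level, or 0.551 and 0.728 rescaled. Within the dMTS group MALAT1 was 1.68 times higher in dMTS 1 than in dMTS 2, and 2.22 times higher rescaled. On the log2(TPM + 1) scale the dMTS mean was 0.27 below that of eGFP and 0.30 below that of FL. These dMTS values are the ones MALAT1 was picked for. The difference of FL from eGFP, which played no part in that choice, was 0.03 (SE 0.16, limma Benjamini-Hochberg adjusted p = 1.00).

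NEAT1 (ENSG00000245532, chr11:65422774-65445540, plus strand) lies on chromosome 11 near MALAT1. It was at 116, 110 and 108 TPM with eGFP, at 108, 115 and 93.7 TPM with FL and at 107, 68.2 and 69.4 TPM with dMTS. Libraries dMTS 2 and 3 were lowest and FL 3 came next, the same 3 libraries as for MALAT1. As deposited all 3 dMTS libraries lay below all 3 eGFP libraries, though dMTS 1 only just did, and 6.58% of all tested genes were lower without overlap in the same way. Rescaled, dMTS 1 was at 116 TPM and within the eGFP range of 111 to 119. The dMTS mean was 81.6 ± 22.1 TPM against 112 ± 4.14 with eGFP and 106 ± 10.9 with FL (SD, n = 3 each).

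The lower mean of NEAT1 with dMTS did not pass the test with all 9 libraries. Against eGFP its log2(TPM + 1) differed by -0.48 (SE 0.16, adjusted p = 0.234 by limma), and -0.55 rescaled (SE 0.23, adjusted p = 0.171). It was -0.40 against FL (SE 0.16, limma adjusted p = 0.790). The result turned on dMTS 1. Without that library NEAT1 fell by 0.69 against eGFP (limma adjusted p = 0.00612, or 0.00728 rescaled) and by 0.61 against FL (limma adjusted p = 0.0324, or 0.0199 rescaled). Leaving dMTS 1 out puts together the libraries in which MALAT1 was seen to be low, and NEAT1 followed MALAT1 over the libraries (Pearson's r = 0.96, rescaled). These values are therefore not independent of how the RNAs were chosen and are no test of NEAT1. The difference of FL from eGFP was -0.08 (SE 0.16, limma adjusted p = 1.00).

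NORAD (ENSG00000260032, chr20:36045618-36051018, minus strand) stood the other way round in the same libraries. Its levels were 175, 164 and 138 TPM with eGFP, 166, 157 and 201 TPM with FL and 155, 249 and 188 TPM with dMTS. The 3 highest libraries were dMTS 2, FL 3 and dMTS 3, the 3 in which MALAT1 and NEAT1 were lowest. As deposited the groups overlapped. Rescaled, the dMTS libraries ran from 168 to 205 TPM and the eGFP libraries from 151 to 167 TPM, without overlap, as for 15.2% of all tested genes in that direction. The difference between dMTS and eGFP was 0.29 (SE 0.16, limma adjusted p = 0.574), or 0.22 rescaled (SE 0.09, adjusted p = 0.158). It was 0.11 without dMTS 2 and 0.45 without dMTS 1. Between FL and eGFP it was 0.13 (SE 0.16, limma adjusted p = 1.00).

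OIP5-AS1 (ENSG00000247556, chr15:41283958-41322392, plus strand) had the same 3 highest libraries as NORAD as deposited, though not rescaled. It was at 13.8, 12.3 and 10.9 TPM with eGFP, 12.97, 12.5 and 14.4 TPM with FL and 13.2, 18.3 and 13.9 TPM with dMTS. Library dMTS 2 was far above the rest as deposited, and after rescaling the 3 dMTS libraries drew together at 14.1 to 15.1 TPM, above all FL (13.1 to 13.9) and all eGFP libraries (12.0 to 13.1). Of all tested genes, 15.2% were higher in the same way against eGFP and 7.94% against FL. Against eGFP the dMTS difference was 0.27 as deposited (SE 0.13, limma adjusted p = 0.478), and 0.13 without dMTS 2. Rescaled, OIP5-AS1 rose by 0.20 (SE 0.04, limma adjusted p = 0.0318). This call was lost with voom on estimated reads (adjusted p = 0.0585), and rescaled it was lost without eGFP 2 (0.112), eGFP 3 (0.104), FL 1 (0.0586), dMTS 2 (0.104) or dMTS 3 (0.0859). The difference from FL was 0.16 (SE 0.13, limma adjusted p = 0.973) and that of FL from eGFP 0.10 (SE 0.13, limma adjusted p = 1.00).

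GAS5 (ENSG00000234741, chr1:173858559-173868882, minus strand) varied little between groups. It was at 38.5, 37.1 and 33.7 TPM with eGFP, 34.6, 38.3 and 35.7 TPM with FL and 36.5, 33.5 and 30.3 TPM with dMTS. The groups overlapped, and dMTS 3 and dMTS 2 were again lowest. Rescaled, dMTS 1 reached 39.6 TPM while dMTS 2 and 3 were at 27.6 and 30.7, below every other library. The difference between dMTS and eGFP was -0.12 (SE 0.10, limma adjusted p = 0.676), or -0.19 rescaled (SE 0.12, adjusted p = 0.326). Without dMTS 1 and rescaled, GAS5 fell by 0.34 against eGFP (limma adjusted p = 0.0181) and by 0.32 against FL (limma adjusted p = 0.0374), while as deposited without dMTS 1 the adjusted p was 0.250 and 0.372. As for NEAT1, this keeps the dMTS libraries in which MALAT1 was seen to be low, and GAS5 followed MALAT1 over the libraries. These values are therefore not independent of how the RNAs were chosen and are no test of GAS5.

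EPB41L4A-AS1 (ENSG00000224032, chr5:112160526-112164818, plus strand) was the steadiest of the 7 as deposited, with a highest level 1.15 times its lowest. It was at 11.5, 11.6 and 11.3 TPM with eGFP, 11.6, 11.7 and 11.2 TPM with FL and 10.96, 11.4 and 10.1 TPM with dMTS. The groups overlapped. Rescaled, dMTS 2 (9.39 TPM) and dMTS 3 (10.2 TPM) became the lowest libraries and dMTS 1 was at 11.9. Its difference between dMTS and eGFP was -0.08 (SE 0.08, limma adjusted p = 0.727), or -0.14 rescaled (SE 0.08, adjusted p = 0.301).

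KCNQ1OT1 (ENSG00000269821, chr11:2597308-2700003, minus strand) was under 1 TPM in every library and so was not tested on the TPM. It was at 0.521, 0.488 and 0.480 TPM with eGFP, 0.519, 0.581 and 0.333 TPM with FL and 0.532, 0.423 and 0.350 TPM with dMTS. FL 3, dMTS 3 and dMTS 2 were lowest, the same 3 libraries as for MALAT1 and NEAT1 in another order. Voom on the estimated reads, which does not need that level, gave a log2 difference of -0.29 between dMTS and eGFP (SE 0.22, adjusted p = 0.473) and -0.13 between FL and eGFP (SE 0.22, adjusted p = 0.916).

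Counted over the members, none was called in any comparison as deposited. For FL against eGFP, limma called 0 of 6 tested members and 0.00756% of all 13231 genes, with 0 members and 1.97% of genes at an unadjusted p under 0.05. For dMTS against eGFP it called 0 of the 5 tested members other than MALAT1 and 0.514% of all genes, with 1 member (NEAT1) and 10.9% of genes at an unadjusted p under 0.05. For dMTS against FL it called 0 of 5 and 0% of all genes, with NEAT1 alone and 5.42% of genes at an unadjusted p under 0.05. Voom on estimated reads also called 0 members in each comparison, and 0.0247%, 7.35% and 0.0371% of its 24258 genes for FL against eGFP, dMTS against eGFP and dMTS against FL. Rescaled, 1 of 5 (OIP5-AS1) was called for dMTS against eGFP, where 9.39% of all genes were, so the share is no result about these RNAs, and 0 were called in the other comparisons (0.0302% and 0.00756% of all genes). The median difference of the tested members for dMTS against eGFP was -0.08, against 0.06 over all genes tested, and -0.14 against 0.01 rescaled. Comparisons that share a group share its libraries and are not independent of each other.

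**Figure D2:**
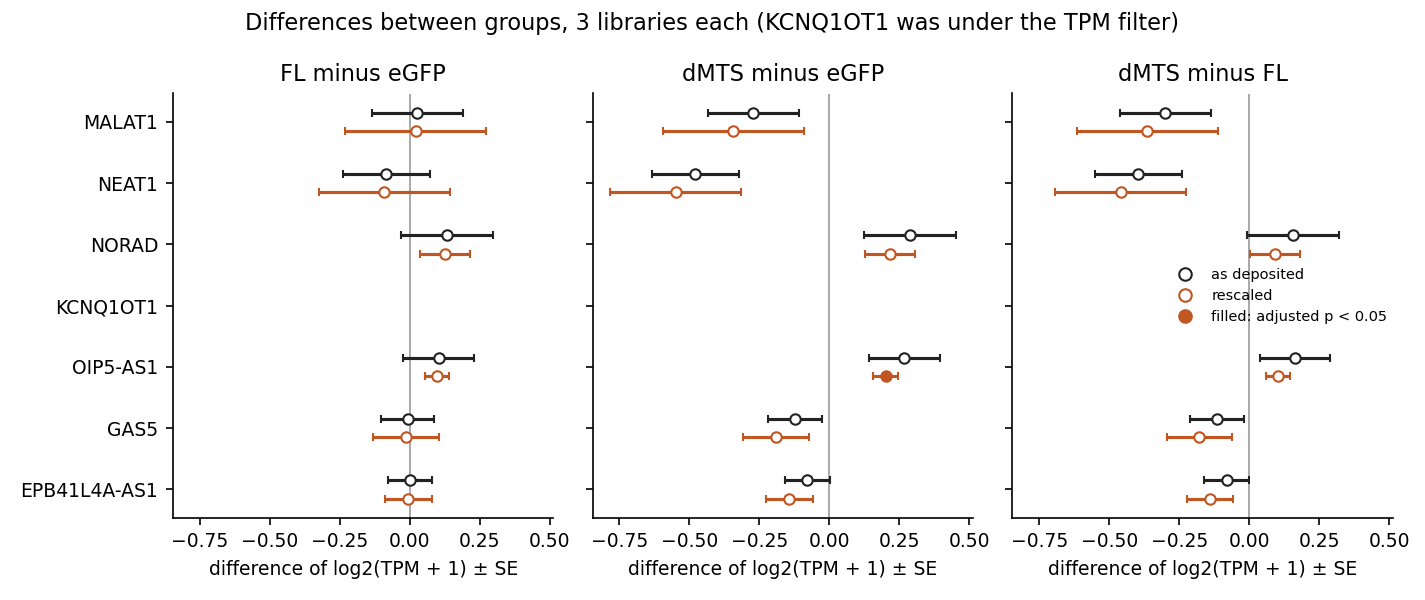
Differences of log2(TPM + 1) between groups (x axes, with standard errors) for each RNA, as deposited (black) and rescaled (orange), 3 libraries per group. The 1 filled point, OIP5-AS1 for dMTS minus eGFP after rescaling, is the only value past an adjusted p of 0.05; MALAT1 was not tested against dMTS and KCNQ1OT1 was under the TPM minimum.

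The members were also ordered over single libraries. As deposited, FL 3, dMTS 2 and dMTS 3 were the 3 lowest of the 9 libraries for MALAT1, NEAT1 and KCNQ1OT1, and the 3 highest for NORAD and OIP5-AS1. Among all tested genes, 0.990% had these libraries as their lowest 3 (2.87% of lncRNA genes and 0.497% of protein-coding genes), and 9.61% had them as their highest 3 (3.97% and 10.0%). After rescaling the low pattern was shared by 9.47% of all genes, 11.4% of lncRNA genes and 10.8% of protein-coding genes, and GAS5 and EPB41L4A-AS1 joined it. The high pattern was then shared by 10.1% of all genes and kept NORAD, while OIP5-AS1 left it, with dMTS 2, dMTS 1 and dMTS 3 as its highest 3. The libraries were singled out after their values for MALAT1 were seen, so these shares are a description. These 3 libraries belong to 2 groups, and as deposited dMTS 1 was not among the 3 lowest for MALAT1, NEAT1 and KCNQ1OT1 or the 3 highest for NORAD and OIP5-AS1.

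**Figure D3:**
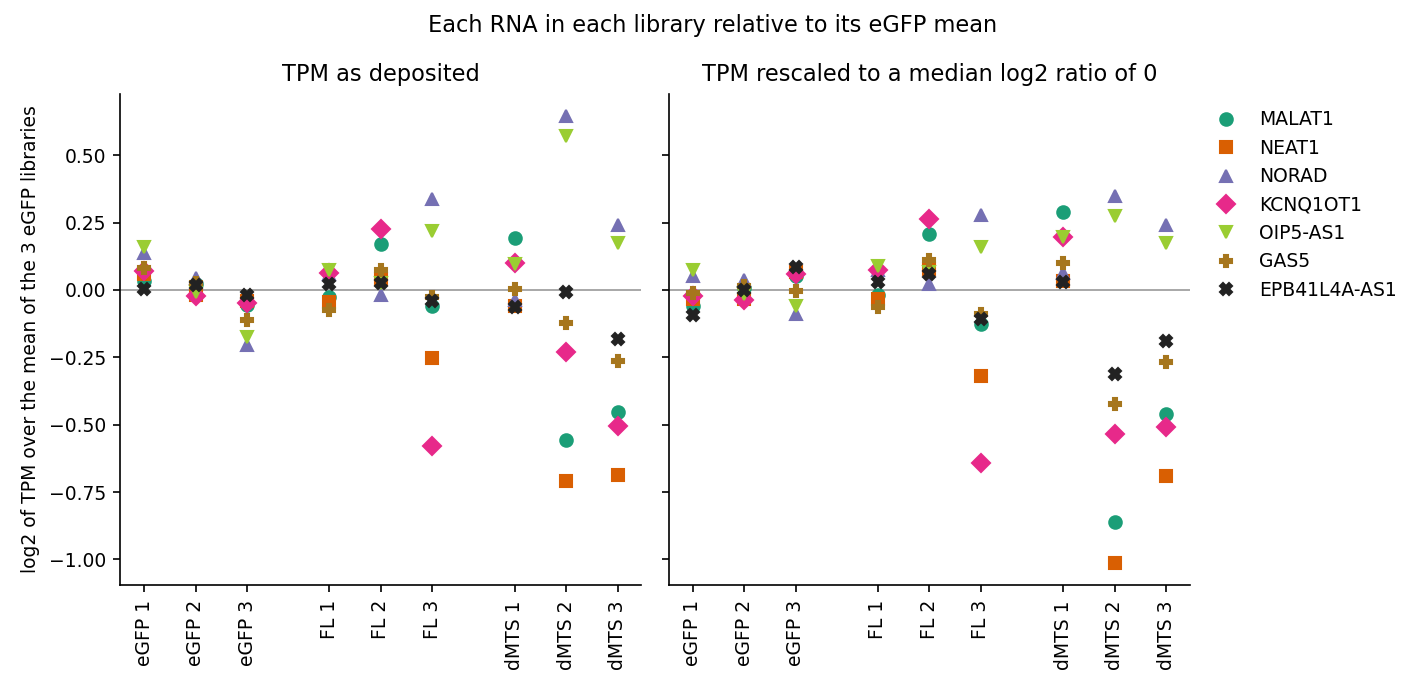
Log2 of each RNA's TPM over its mean in the 3 eGFP libraries (y axis) for the 9 libraries (x axis), as deposited on the left and rescaled on the right. In dMTS 2 and dMTS 3 MALAT1, NEAT1 and KCNQ1OT1 sit below 0 while NORAD and OIP5-AS1 sit above it, and in dMTS 1 no RNA is more than 0.10 below 0.

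The composition and depth of the libraries were set beside this pattern. The mitochondrial share of TPM was 54.9% in dMTS 2, but 62.9% in dMTS 3 and 63.4% in FL 3, within the 62.1% to 66.0% of the eGFP libraries. Of the estimated reads the share was 14.8% in dMTS 2, 19.8% in dMTS 3 and 19.2% in FL 3, against 19.1% to 22.5% with eGFP. The estimated depth was 121 M reads in FL 3 and in dMTS 2 and 111 M in dMTS 3, against 112 M in eGFP 1 and 86.3 M to 104 M in the others. The part of depth and of composition in the pattern was not tested.

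Ratios of 2 RNAs within a library do not depend on how the library is scaled. MALAT1 over NORAD was 7.01, 7.43 and 8.35 with eGFP, 7.10, 8.61 and 5.72 with FL and 8.86, 3.27 and 4.66 with dMTS. NEAT1 over NORAD was 0.664, 0.671 and 0.784 with eGFP, 0.652, 0.732 and 0.465 with FL and 0.691, 0.274 and 0.369 with dMTS. Both ratios were lowest in dMTS 2, dMTS 3 and FL 3, and those of dMTS 1 lay inside or above the eGFP range. MALAT1 over NEAT1, in contrast, kept to 10.6 to 12.8 over all 9 libraries, though the 2 RNAs each varied 1.68-fold and 1.70-fold. It was 10.6 to 11.1 with eGFP, 10.9 to 12.3 with FL and 12.0 to 12.8 with dMTS. The dMTS libraries thus lay above the eGFP libraries but overlapped those of FL. How often other ratios separate in this way was not counted. MALAT1 was picked for its dMTS values, so its ratios are a description. OIP5-AS1 over NORAD also kept within narrow bounds, at 0.0713 to 0.0851.

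**Figure D4:**
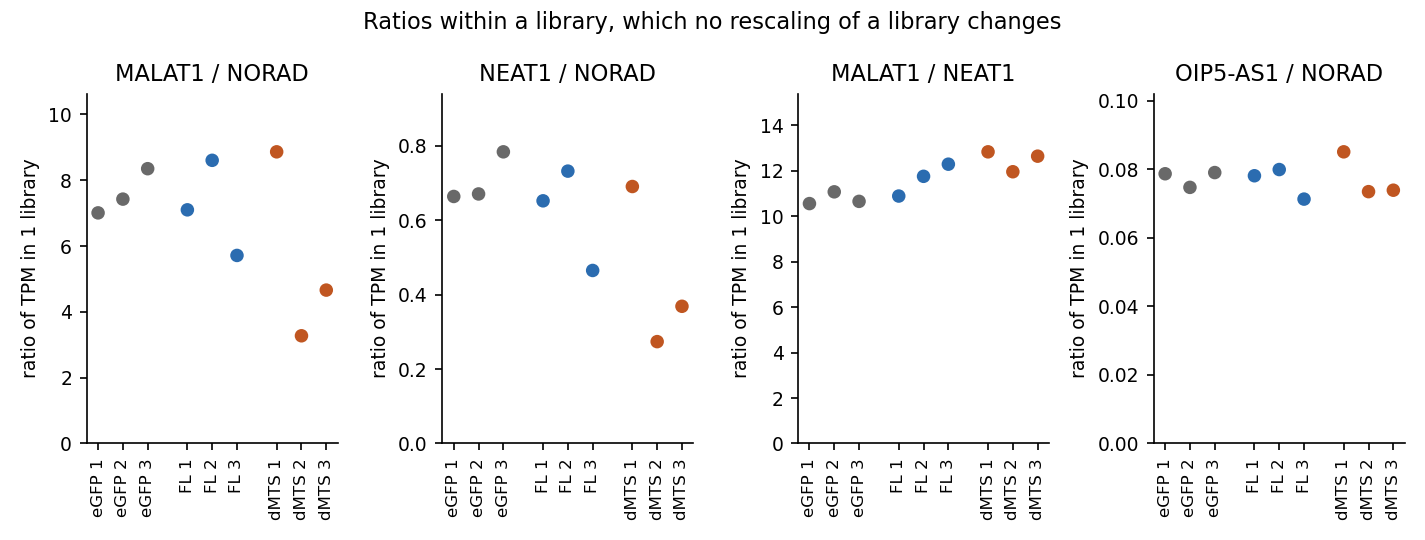
Ratio of the TPM of 2 RNAs within each library (y axes, from 0) for the 9 libraries (x axes), coloured by group as eGFP (grey), FL (blue) and dMTS (orange). MALAT1 / NORAD and NEAT1 / NORAD drop in FL 3, dMTS 2 and dMTS 3, while MALAT1 / NEAT1 and OIP5-AS1 / NORAD stay within 10.6 to 12.8 and 0.0713 to 0.0851.

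The spread inside the dMTS group was wide for some of the RNAs even against other well-measured genes. Among 3766 genes with a mean of at least 10 TPM, the median standard deviation of log2(TPM + 1) in the dMTS group was 0.18 as deposited and 0.06 rescaled. NEAT1 had 0.36 and 0.53, at percentiles 93.7 and 99.5 of those genes. MALAT1, chosen for this, had 0.41 and 0.58, at percentiles 95.5 and 99.7. GAS5 went from percentile 12.6 to 94.9 on rescaling, and OIP5-AS1 from 75.4 to 38.6. A wide spread was not limited to dMTS. Within the FL group NEAT1 was at percentiles 90.0 and 97.0 and MALAT1 at 84.8 and 95.4, as deposited and rescaled. Within the eGFP group they were at 24.6 and 21.4 as deposited and both at 55.4 rescaled.

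Reads of a gene and of a partner on the other strand can be told apart only if strand was used in counting, and that setting is not given in the sources used here. TALAM1, the antisense RNA of MALAT1 (chr11:65499312-65507432, minus strand), was at 3.65, 3.42 and 2.97 TPM with eGFP, 3.01, 2.95 and 3.57 TPM with FL and 2.61, 1.94 and 1.97 TPM with dMTS. All 3 dMTS libraries lay below the other 6, as for 3.51% of all tested genes, and also rescaled, as for 7.56%. Unlike MALAT1 it was not low in FL 3. It amounted to 0.190% to 0.311% of the MALAT1 level, whether these are MALAT1 reads counted on the wrong gene was not tested, and its dMTS values are given with no test. KCNQ1, the host of KCNQ1OT1, was at 0.0307 to 0.0435 TPM.

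Genes next to the members were read on both scales. FRMD8, on the lower side of NEAT1, was at 2.43 to 2.97 TPM over all libraries. It was highest in dMTS 2 as deposited and lowest there rescaled, at 2.44 TPM, as NEAT1 was. ZBTB37, which overlaps GAS5 on the other strand and encodes a zinc finger protein, was highest in dMTS 2, at 8.21 TPM against 4.64 to 5.79 TPM elsewhere, and stayed highest there rescaled, at 6.76 TPM. OIP5-AS1 overlaps OIP5 and the mitotic spindle gene NUSAP1, which lies on the same strand. NUSAP1 was at 10.2 TPM in dMTS 2 and 7.01 to 8.53 elsewhere as deposited, and its difference between dMTS and eGFP after rescaling was 0.10 (SE 0.03, limma adjusted p = 0.0726). EPB41L4A, NORAD's neighbour CNBD2 and the KCNQ1OT1 neighbour TRPM5 were all under 0.1 TPM.

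Genes most like each member over the 9 libraries were sought among 3466 genes with a symbol and a mean of at least 10 TPM, by Pearson's r of rescaled log2(TPM + 1). All r rest on the same 9 libraries and share their scaling and depth, and no p is given. For MALAT1 they were LUC7L3, a U1 snRNP-associated splicing factor (r = 0.993), the ribosomal protein gene RPL9 (0.985), METTL17 of the mitochondrial ribosome (0.975), the noncoding THAP9-AS1 (0.966) and PPAN, a ribosome assembly factor (0.962). For NEAT1 they were the snoRNA host SNHG1 (0.990), the homeobox gene PBX2 (0.989) and CDK5RAP3 (0.986). LUC7L3, which is also a speckle protein, varied much less than MALAT1, from 13.5 to 16.0 TPM as deposited. NORAD was most like CCDC47 (0.990), PHF10 (0.989) and NDUFS1 (0.986), and OIP5-AS1 most like TOP2A, the DNA topoisomerase of dividing cells (0.984), and SSR1 (0.978). GAS5 shared THAP9-AS1 (0.988), LUC7L3 (0.979) and METTL17 (0.973) with MALAT1, and EPB41L4A-AS1 was nearest to AURKB (0.976), TROAP (0.974) and MEN1 (0.973). KCNQ1OT1 was nearest to PRR3 (0.965), POLR1G (0.961) and the pseudogene UBTFL9 (0.948). Between members, r was 0.96 for MALAT1 and NEAT1, 0.99 for MALAT1 and GAS5, -0.80 for MALAT1 and NORAD and 0.84 for NORAD and OIP5-AS1. MALAT1 was picked for its dMTS values, so its r are a description. Rescaled, 16.1% of all tested genes had dMTS 2 and dMTS 3 as their lowest 2. How often r of this size arise between other genes was not counted.

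The genes for proteins that build paraspeckles and speckles were read against the 9.39% of all genes called rescaled for dMTS against eGFP. Of 17 paraspeckle protein genes, limma called 0 in any comparison as deposited, with a median difference between dMTS and eGFP of 0.09 (0.06 over all genes) and 1 at an unadjusted p under 0.05. HNRNPA1 and HNRNPK, the most abundant, were at 219 to 300 and 157 to 224 TPM over the 9 libraries, highest in dMTS 2 as deposited. Rescaled, HNRNPA1 was highest in dMTS 1. For dMTS against eGFP rescaled, 3 of 17 were called: HNRNPH3 (0.17, SE 0.03, limma adjusted p = 0.0237) and NUDT21 (0.17, SE 0.04, limma adjusted p = 0.0294) rose, and CPSF7 fell by 0.11 (SE 0.03, limma adjusted p = 0.0380). Of 22 speckle protein genes, 0 were called as deposited and 2 rescaled, both lower with dMTS, a share near the 9.39% of all genes. SRRM2, a core speckle protein, was at 159, 149 and 136 TPM with eGFP, 144, 125 and 145 with FL and 107, 144 and 101 with dMTS, and rescaled fell by 0.42 (SE 0.06, limma adjusted p = 0.0137). ACIN1 fell by 0.19 rescaled (SE 0.04, limma adjusted p = 0.0330). SRRM2 was low in dMTS 1 too, where MALAT1 was highest.

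Genes for cutting and protecting the end of MALAT1, for NORAD's binding and for decay were read against the same shares, 9.39% of all genes called rescaled for dMTS against eGFP and 0.0302% for FL against eGFP. Among 13 genes of 3′ end processing, limma called 0 as deposited. Rescaled it called 1, RPPH1, the RNA part of RNase P, higher in both OGDHL groups. It was at 3.91 to 4.40 TPM with eGFP, 7.10 to 8.41 with FL and 5.35 to 6.58 with dMTS. The rescaled difference from eGFP was 0.74 for FL (SE 0.08, limma adjusted p = 0.0424) and 0.40 for dMTS (SE 0.08, limma adjusted p = 0.0236). As deposited it was 0.75 for FL (SE 0.10, limma adjusted p = 0.0621) and 0.46 for dMTS (SE 0.10, limma adjusted p = 0.0712). RPPH1 is also on the list below of RNAs that lack a poly(A) tail. The part of mRNA enrichment in its level was not tested, and its number of reads is not given here. Of the 7 NORAD partners 0 were called, as deposited or rescaled, and PUM2 was at 3.24 to 5.19 TPM, highest in dMTS 2. Of 13 tested nonsense-mediated decay factors 0 were called as deposited and 1 rescaled for dMTS against eGFP, near the share of all genes. It was SMG5, which fell by 0.16 (SE 0.04, limma adjusted p = 0.0470). The imprinted genes around KCNQ1OT1 gave 0 calls among 5 tested. CDKN1C, which KCNQ1OT1 is known to silence, was at 0.934 to 1.12 TPM with eGFP, 0.936 to 1.15 with FL and 1.28 to 1.67 with dMTS, above the other groups in all 3 libraries, as for 2.07% of all tested genes. Rescaled, dMTS 2 was at 1.15 TPM, below FL 2, so dMTS and FL overlapped. The difference of CDKN1C from eGFP was 0.27 (SE 0.09, limma adjusted p = 0.247) on an estimated 72 to 147 reads.

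RNAs that lack a poly(A) tail were set beside MALAT1 because mRNA was enriched before sequencing. RN7SL2, an RNA of the signal recognition particle, was at 67.2 to 89.9 TPM with eGFP, 69.0 and 92.3 in FL 1 and 2, 290.0 in FL 3 and 311, 206 and 156 TPM in dMTS 1 to 3. It was thus high in the 3 libraries where MALAT1 was low, but highest in dMTS 1, where MALAT1 was highest too. The histone gene H1-2 was at 185 to 197 TPM with eGFP, 165 to 174 with FL and 151 to 180 with dMTS. RN7SK holds a transcription elongation factor inactive. As deposited it was at 12.9 TPM in dMTS 1, 44.7 in dMTS 2 and 34.8 in dMTS 3, against 47.5 to 60.5 with eGFP. Of all tested genes, 6.58% were lower without overlap in the same way. The difference between dMTS and eGFP was -0.94 (SE 0.34, limma adjusted p = 0.303). RN7SK was also lower with FL than with eGFP, by a difference of -0.57 (SE 0.34) that was not called. Between dMTS and FL it was -0.36 (SE 0.34, limma adjusted p = 0.973). Of 11 tested genes of the list, 7 had a lower mean with dMTS than with eGFP as deposited (median -0.15 against 0.06 over all genes). At an unadjusted p under 0.05 were 5 of the 11, beside 10.9% of all genes. RPPH1, RN7SL1 and RN7SL2 were higher, and H1-2 and RN7SK were lower. RN7SL1 and RN7SL2 had nearly the same difference, 1.48 and 1.47. Whether they share reads was not tested, so the 5 may not be independent of each other. After adjustment limma called 0. Rescaled for dMTS against eGFP it called 2, beside 9.39% of all genes, RPPH1 higher and H1-2 lower (-0.32, SE 0.06, adjusted p = 0.0265). The part of mRNA enrichment in the levels of MALAT1 and NEAT1 was not tested.

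The snoRNA host genes are the closest relatives of GAS5 and EPB41L4A-AS1, and the 15 of the list were tested with 0 calls in any comparison, as deposited or rescaled. For dMTS against eGFP, 9 of 15 were lower as deposited (median -0.05 against 0.06 over all genes, 5 at an unadjusted p under 0.05 beside 10.9% of all genes) and 12 of 15 rescaled (median -0.12 against 0.01, 6 at an unadjusted p under 0.05 beside 28.3% of all genes). SNHG1, the most abundant, was at 98.1, 94.0 and 87.5 TPM with eGFP, 91.7, 94.9 and 88.7 with FL and 85.2, 74.8 and 68.0 with dMTS, so that all dMTS libraries lay below all others, as for 3.51% of all tested genes. Rescaled, dMTS 1 reached 92.6 TPM, above FL 3 at 86.1, and the dMTS and FL groups overlapped. Its difference from eGFP was -0.29 (SE 0.10, limma adjusted p = 0.250). The lowest value was that of SNHG17, -0.36 (SE 0.10, limma adjusted p = 0.136), and the highest that of SNHG8, 0.12. SNHG19 was at 80.4 to 81.2 TPM with eGFP and 73.2 to 82.5 with dMTS. For FL against eGFP the list's median was -0.03.

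**Figure D5:**
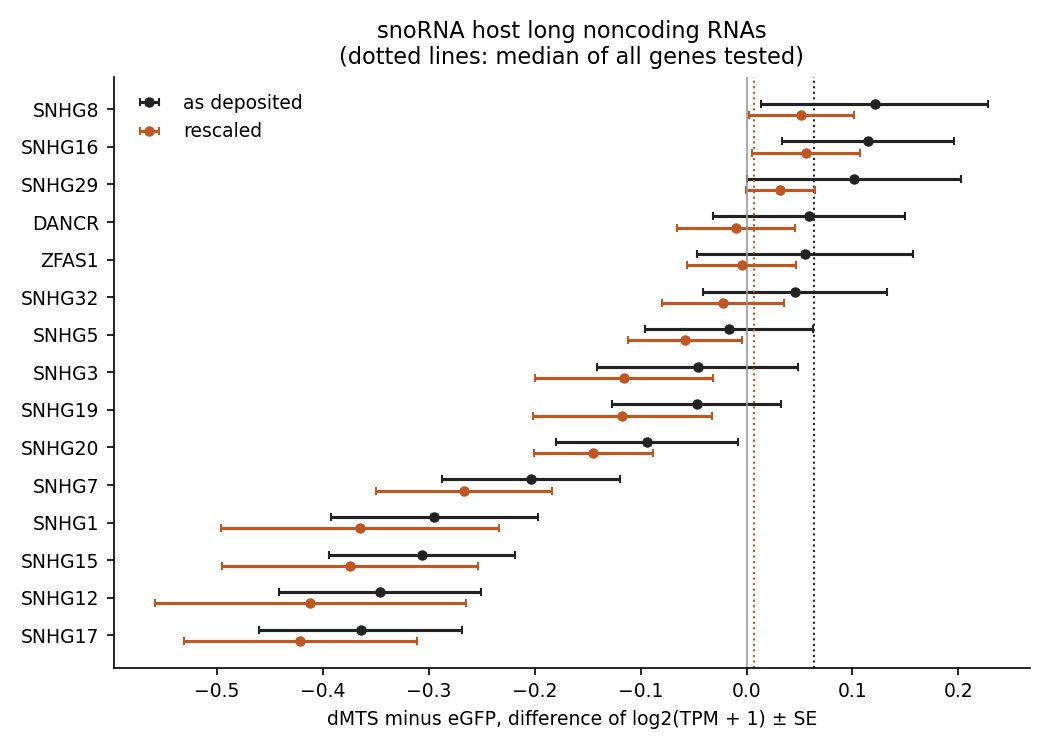
Difference of log2(TPM + 1) between dMTS and eGFP (x axis, with standard errors, 3 libraries per group) for the 15 snoRNA host genes, as deposited (black) and rescaled (orange), with dotted lines at the median of all genes tested. SNHG17, SNHG12, SNHG15, SNHG1 and SNHG7 lie lowest, and none passed an adjusted p of 0.05.

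Among 7 tested genes of a list of other long noncoding RNAs, limma called 0 in any comparison, as deposited or rescaled. TUG1, a nuclear RNA and the most abundant of them, was at 90.0, 80.7 and 69.7 TPM with eGFP, 83.8, 74.3 and 91.6 with FL and 70.6, 108 and 79.0 with dMTS, highest in dMTS 2 and FL 3, where MALAT1 was among its lowest 3. PCAT6, a prostate cancer transcript, was at 7.63 to 10.3 TPM. Over all 1988 tested lncRNA genes, limma called 2 higher and 18 lower for dMTS against eGFP as deposited (1.01%, against 0.440% of protein-coding genes), and 45 higher and 141 lower rescaled (9.36% against 10.8%). The median difference of lncRNA genes was 0.02 as deposited and -0.03 rescaled, against 0.06 and 0.00 for protein-coding genes.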

How the data were processed

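Messenger RNA of 9 libraries was enriched, primed at random with strand marking and read as pairs, per the labels' protocols. The authors deposited TPM for 36650 genes. Per the submitters' processing notes, GRCh38 and STAR were used, while for the quantifier, annotation release and strand setting the entry is: not given in the sources used here. The length column equals the genomic span of every gene, so TPM are per span, and reads were estimated from the steps of low values (72.3% to 74.9% of values under 20 reads within 0.01 of a whole number), which gives no counting interval. Genes with at least 1 TPM in at least 3 libraries (13231) were tested with limma 3.58.1 in R 4.3.3 on log2(TPM + 1), with eBayes trend over all 9 libraries, two-sided, Benjamini-Hochberg adjusted over all genes tested and called under 0.05. Differences on this scale understate changes of low genes. The 7 members and all lists were chosen with earlier results of these data known. Named genes were the members, their overlapping or nearest genes, the 5 (MALAT1) or 3 most similar genes, and from each list the 2 most abundant and any called; SNHG7, SNHG8, SNHG12, SNHG15, SNHG17 and PUM2 were named after their values were seen, and some genes the rule gives are not reported here. No label says that replicates were separate cultures, so a p-value reflects the spread of these samples alone, which may be technical. The fit was tested on simulated data, with an outcome not given here, so this is no check of the dMTS comparisons. Sequences and figures used Python 3.11.15 and matplotlib 3.10.9.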

Additional observations from a re-analysis of the deposited data

How the results depend on the processing

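Members called were counted again with other pseudocounts (0.1 and 5), other filters (none, or a mean of 5 TPM and above), rescaling, TPM recomputed after removing the mitochondrial genes and OGDHL, the replicate block with and without rescaling, only the 6 libraries compared, a robust eBayes, voom on estimated reads, and each library left out as deposited and rescaled. For FL against eGFP the count stayed at 0 in all 29 alternatives, and leaving out a library gave 0 to 0. For dMTS against eGFP it was 0 in 23 of 29, 1 with rescaling, and 0 to 3 with a library left out. For dMTS against FL it was 0 in 27 of 29, and 0 to 2 with a library left out. The highest counts, 3 (NEAT1 and GAS5 lower, OIP5-AS1 higher) and 2 (NEAT1 and GAS5 lower), came without dMTS replicate 1 and rescaled. That setting keeps the dMTS libraries in which MALAT1 was seen to be low, so these counts are not independent of how the RNAs were chosen. The share of all genes called there is not given here, so the counts are no result about these RNAs. The cause was not tested. No called value reversed. For dMTS against eGFP no member's difference changed sign; for dMTS against FL 1 value did, NORAD without dMTS replicate 2 (-0.02 against 0.16); for FL against eGFP 25 of 177 did, for EPB41L4A-AS1, GAS5, MALAT1 and NEAT1. KCNQ1OT1 for dMTS against eGFP, untested, went from -0.06 to -0.16 without the mitochondrial genes and to -0.29 with voom. With the replicate number as a block the counts were 0 as deposited and rescaled, and OIP5-AS1 after rescaling had a limma adjusted p = 0.0960. No pairing by replicate number was seen: deviations of same-numbered libraries correlated at -0.44 to 0.11, and 1 of 9 pairs was over 0.1. A library correlated best with its own number in 2 of 18 cases. With 3 libraries per group this cannot show that same-numbered samples were handled apart. The number of libraries and the estimated depth limit how small a difference can pass.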
